A study of Mus musculus with 9 samples.

Results

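Esr1, Pgr, Prlr, Foxa1, Gata3, Elf5, Kit, Areg, Stat5a and Stat5b encode the hormone receptors, transcription factors and growth signals that set luminal identity in the mammary gland. These 10 genes were taken by symbol from the 55403 rows of a gene count table. All 10 passed the filter on low counts, which kept 14665 genes for testing. The libraries came from mammary tumors of female C57BL/6 mice carrying MMTV-PyMT and MUC1.Tg, sequenced as ribosomal-RNA-depleted total RNA after the tumors had been dissociated with collagenase and trypsin. Tumors with the genotype Hspa1a/Hspa1b+/+ (WT, 4 libraries, animals of 122 to 132 days) were compared with tumors lacking both genes (KO, 5 libraries, 120 to 125 days). Both groups carried both transgenes. The series asks which tumor processes depend on HSP72, the stress-inducible chaperone that Hspa1a and Hspa1b encode.

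In the MMTV-PyMT model, the mouse mammary tumor virus promoter drives the polyoma virus middle T oncogene in mammary epithelium, and that promoter itself responds to steroid hormones. MUC1.Tg is a human MUC1 transgene, also present in every library. The tumors are bulk tissue, so fewer cells of a type and less RNA per cell cannot be told apart. Animals are not numbered in the labels, so a p-value here reflects the spread among the libraries, which may in part be technical.

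In the normal gland, estrogen acts through the receptor ERα (Esr1) in hormone-sensing luminal cells, with FOXA1 opening chromatin for it and GATA3 maintaining the luminal state. ERα induces the progesterone receptor (Pgr) and the EGF-family ligand amphiregulin (Areg), which carries the signal to neighbouring cells. Prolactin acts through its receptor (Prlr), JAK2 and the transcription factors STAT5A and STAT5B, and together with ELF5 it drives the alveolar, milk-producing program, whose luminal progenitors carry the receptor tyrosine kinase KIT.

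The promoters of the members that varied most between libraries of a group, Pgr, Areg, Foxa1 and Esr1, are printed because the results below turn on their spread. Each sequence runs 5′ to 3′ on the gene's strand and ends at or just before the RefSeq start of transcription (RefSeq, GRCm38.p6). Bases annotated as untranslated region were left off. Capitals mark a match to a searched motif. All 10 members had a promoter entry, and Esr1 had 2 windows, of which the second, the only one with a motif match, is shown. The positions are chr9:8899583-8899832 on the plus strand for Pgr, chr5:91139349-91139598 on the plus strand for Areg, chr12:57546122-57546361 on the minus strand for Foxa1 and chr10:4709908-4710154 on the plus strand for Esr1.
Pgr: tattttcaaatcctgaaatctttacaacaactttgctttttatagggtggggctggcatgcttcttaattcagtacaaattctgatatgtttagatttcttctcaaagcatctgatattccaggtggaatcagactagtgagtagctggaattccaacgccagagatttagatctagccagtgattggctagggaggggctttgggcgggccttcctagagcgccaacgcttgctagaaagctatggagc
Areg: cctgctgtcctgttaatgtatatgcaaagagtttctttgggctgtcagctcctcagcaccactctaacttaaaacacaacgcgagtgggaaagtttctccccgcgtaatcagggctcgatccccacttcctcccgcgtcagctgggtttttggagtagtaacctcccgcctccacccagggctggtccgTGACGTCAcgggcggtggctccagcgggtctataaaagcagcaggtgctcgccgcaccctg
Foxa1: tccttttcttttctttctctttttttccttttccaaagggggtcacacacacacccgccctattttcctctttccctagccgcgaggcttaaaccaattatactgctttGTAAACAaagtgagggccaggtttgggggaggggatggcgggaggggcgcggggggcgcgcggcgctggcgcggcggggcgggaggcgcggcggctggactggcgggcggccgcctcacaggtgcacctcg
Esr1: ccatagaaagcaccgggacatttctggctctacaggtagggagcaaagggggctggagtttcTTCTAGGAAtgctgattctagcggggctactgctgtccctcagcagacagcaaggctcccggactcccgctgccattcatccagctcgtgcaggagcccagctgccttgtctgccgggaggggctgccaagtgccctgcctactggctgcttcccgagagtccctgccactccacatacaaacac

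The motifs were searched on both strands in the 250 bases before the start. The Areg promoter held the cAMP response element TGACGTCA, 61 bases before the start, and 1.55% of 32817 promoter windows of that length held it. The Foxa1 promoter held the forkhead motif TGTTTAC on its reverse strand, 141 bases before the start (3.16% of windows). The Esr1 window held the STAT motif TTCNNNGAA 188 bases before the start (7.01% of windows). Pgr held none of the motifs searched, which also included the GATA motif AGATAA (9.99%), the estrogen response element half-site AGGTCA (14%) and the full estrogen response element (0.064%), which is that half-site less its first base, 3 free bases and the reverse complement, and so overlaps it. Of the members not printed, Prlr held the forkhead and STAT motifs in one window, and Stat5a and Stat5b held the half-site. A match describes letters in a window and was not tested as a binding site.

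The labels were checked on the targeted genes. Hspa1b had 173 to 388 counts in the WT libraries and 0 to 4 in the KO libraries, and Hspa1a had 24 to 44 and 1 to 10. Libraries ranged from 11500920 to 19136317 fragments and from 4410399 to 6221181 gene counts, so the level that a count of 0 leaves possible was 0.482 to 0.680 CPM (counts scaled by library size), reckoned as 3 counts and limited to counting error. The luminal epithelial markers, 8 genes led by Krt8 and Krt18, were detected throughout, with a summed level of 3009 to 6681 CPM in WT and 2980 to 3692 CPM in KO. All 8 had a log2 fold change of KO over WT below 0 (median -0.49, and -0.30 without WT 2), none passed the adjusted edgeR test, and Cdh1 and Cldn4 had an unadjusted p under 0.05, with 0.0404 and 0.0427. The part of epithelial content in the values that follow was not tested. On the CPM scale, the library WT 2 stood apart from the other WT libraries in Esr1, Pgr and Areg. It came from the oldest animal, at 132 days, while the others were 120 to 125 days old, and the members' fold changes and the medians of the lists are given with and without it. The PyMT transgene stood at 7324 CPM in WT 2, at 7294 to 10167 CPM over all WT libraries and at 8575 to 15448 CPM over KO.

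None of the 10 genes differed between KO and WT beyond the spread of the libraries (edgeR quasi-likelihood test, Benjamini-Hochberg adjusted p under 0.05). Over all genes tested, 13 of 14665 (0.0886%) passed that test. DESeq2 and limma-voom called 0 of the 10 as well. Adjusted p-values of the members ran from 0.616 for Elf5 to 0.985 for Esr1. Elf5 was the only member with an unadjusted p under 0.05, as were 7.95% of all genes tested and 4.59% on the lower side. KO and WT overlapped in all 10 members, while the groups did not overlap for 2.7% of the genes tested. The fold change was below 0 for 8 of the 10 members and for 50% of all genes tested, with a median log2 fold change of -0.24 over the members and -7.763e-05 over all genes. Without WT 2 only 2 of the 10 were below 0.

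**Figure D1:**
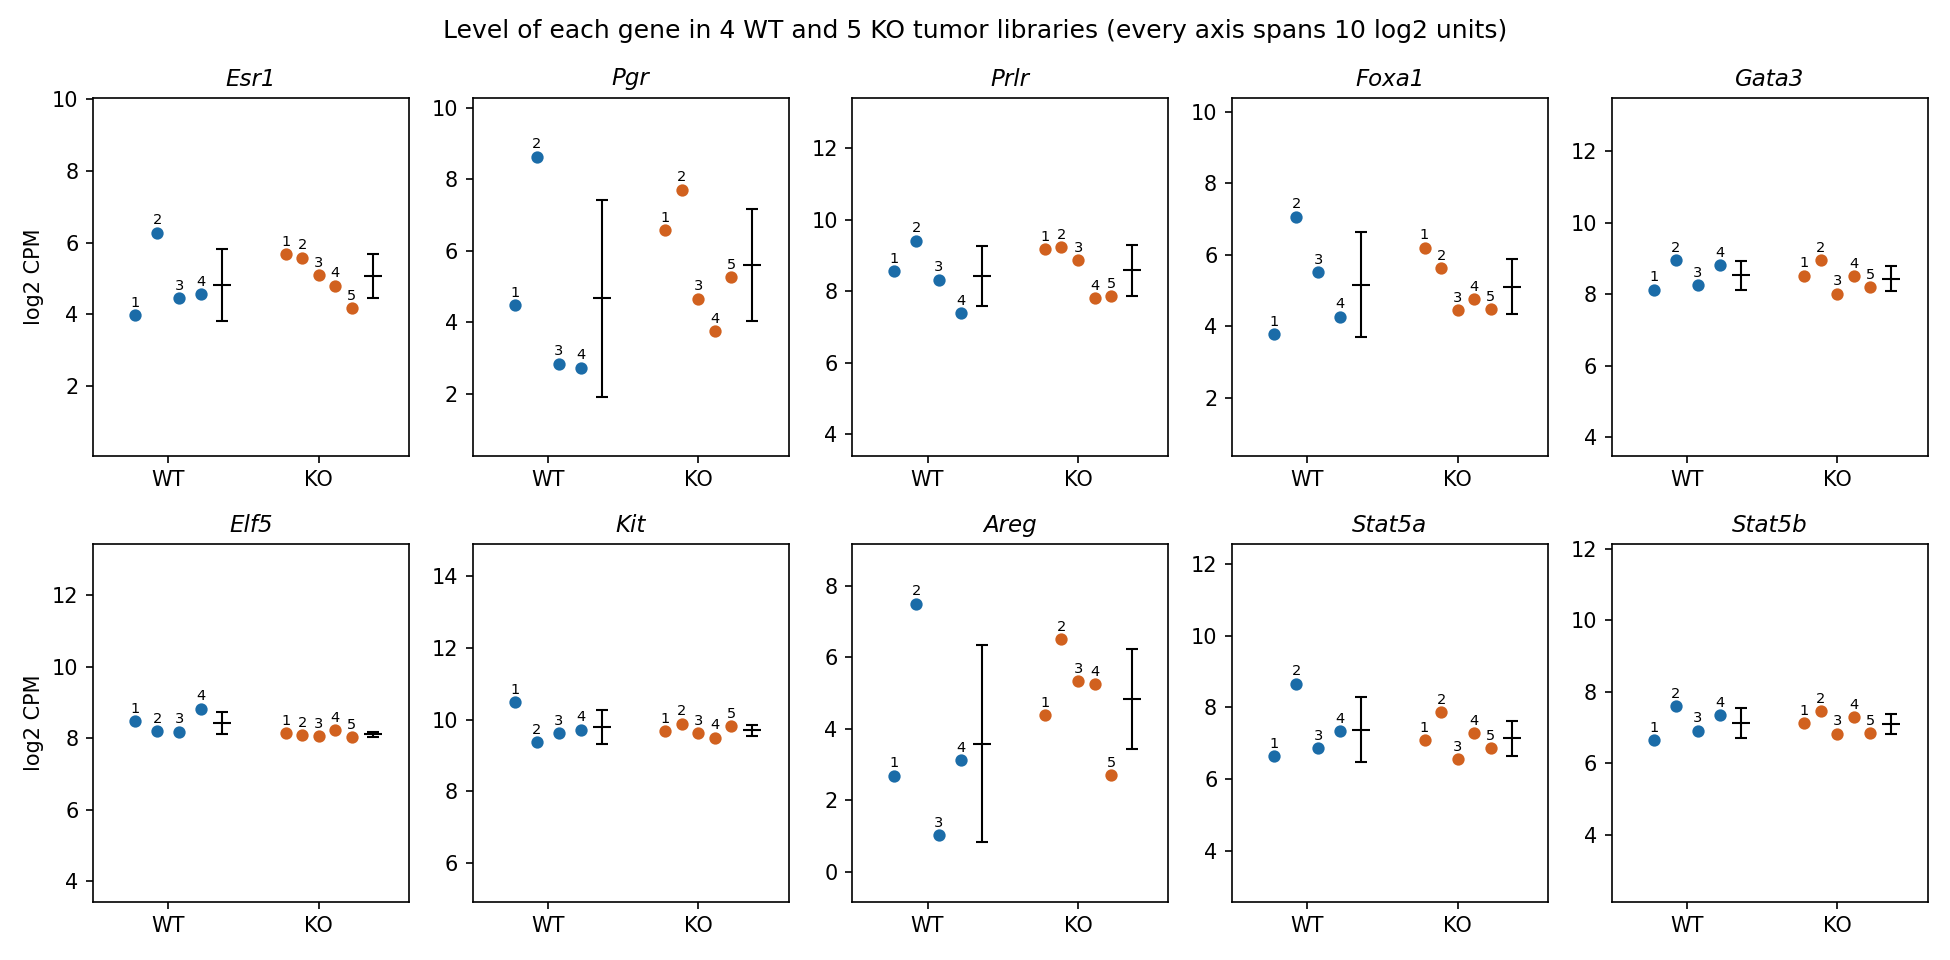
Level of each gene in every library (log2 CPM; each panel spans the same number of log2 units). Points are libraries, black bars the mean ± SD of 4 WT and 5 KO libraries. The groups overlap for all 10 genes, and WT 2 is the highest library for 8 of them.

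The members differed far more in how much they varied within a genotype than in their difference between genotypes. The within-group SD of log2 CPM was 2.16 for Pgr, 2.10 for Areg and 1.12 for Foxa1, against a median of 0.30 over all genes tested. Pgr and Areg lay at the 99.9 percentile of that spread and Foxa1 at the 99 percentile. Esr1 (0.81), Prlr (0.76) and Stat5a (0.70) lay at percentiles 96.6, 95.7 and 94.1. Gata3 (0.38), Stat5b (0.35), Kit (0.34) and Elf5 (0.21) lay between percentiles 64.1 and 25.8. The hormone receptors, their pioneer factor, the ligand Areg and Stat5a thus formed the wide end, and Gata3, Stat5b, Kit and Elf5 the narrow end. These SDs include WT 2 and were not taken without it. For Esr1, WT 2 stood at 6.28 log2 CPM and the other WT libraries at 3.97 to 4.56. For Stat5a, WT 2 stood at 8.66 and the other WT libraries at 6.63 to 7.35.

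**Figure D2:**
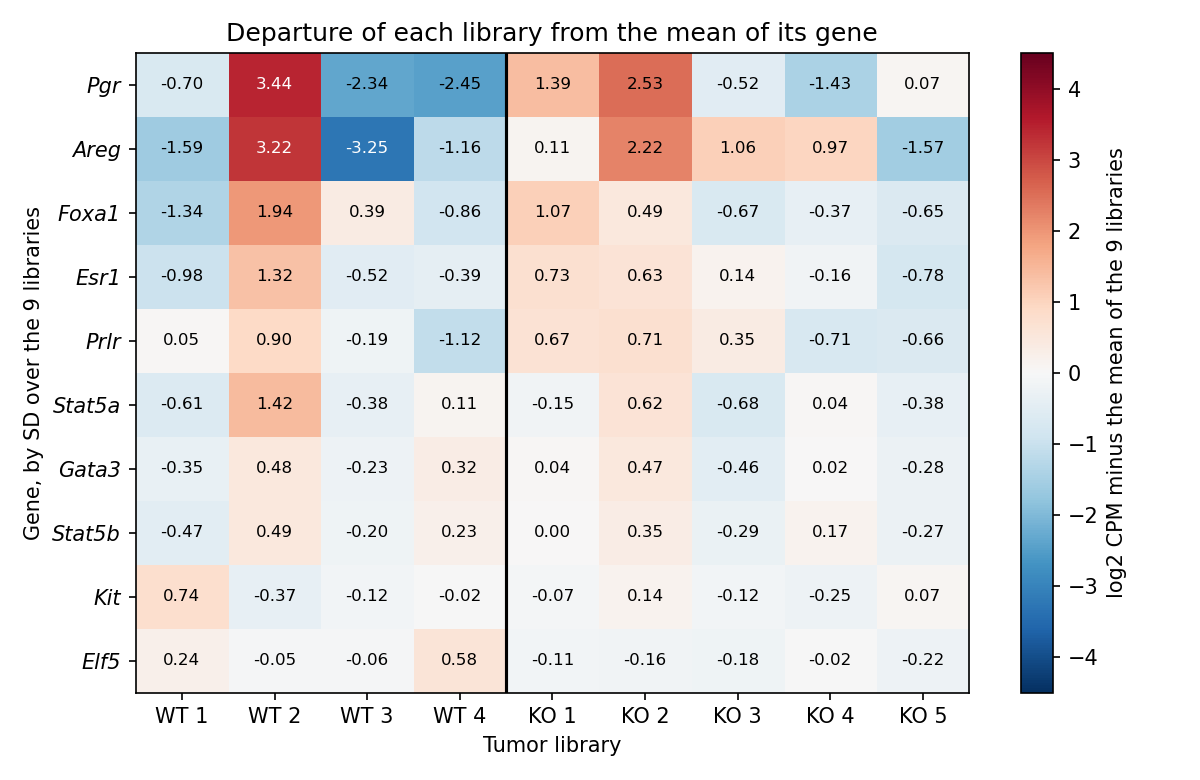
Log2 CPM of each gene minus its mean over the 9 libraries, with genes ordered by their SD. WT 2 is highest for 8 of 10 genes, all but Elf5 and Kit, and KO 2 is the highest KO library for 7 of 10. Over all genes tested, WT 2 is highest for 12.6%, and the share for KO 2 among KO libraries was not computed.

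The estrogen receptor gene Esr1 (ENSMUSG00000019768.16, chromosome 10, 4611593 to 5005614, plus strand) stood at 15.4, 77.1, 21.3 and 23.3 CPM in WT 1 to WT 4 and at 51.0, 47.4, 33.8, 27.4 and 17.6 CPM in KO 1 to KO 5. WT 2 was the highest library and WT 1 the lowest, with all KO libraries between them. WT averaged 34.3 ± 28.8 CPM (SD, n = 4) and KO 35.5 ± 13.9 CPM (SD, n = 5). The log2 fold change of KO over WT was 0.05 ± 0.46 (SE; adjusted p = 0.985, edgeR). Esr1 had 1678 counts over the 9 libraries, the fewest of the members, although its exons span 13661 bases.

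Pgr, the progesterone receptor gene and a classical ERα target (ENSMUSG00000031870.16, chromosome 9, 8899833 to 8968611, plus strand), stood at 22.1, 396, 6.81 and 6.27 CPM in WT 1 to WT 4. In KO 1 to KO 5 it stood at 95.3, 209, 25.0, 13.2 and 38.0 CPM. The highest library was 63.2 times the lowest, both of them WT. Within KO the range was 15.9-fold, from KO 4 to KO 2. WT averaged 108 ± 192 CPM (SD, n = 4) and KO 76.2 ± 80.9 CPM (SD, n = 5), and on the log2 scale the order of the group means was the other way, 4.67 in WT and 5.60 in KO. The fitted log2 fold change was -0.50 ± 1.14 (SE; adjusted p = 0.931, edgeR). Leaving out WT 2 reversed its sign, as described further on.

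Areg, the ligand that relays the estrogen signal (ENSMUSG00000029378.5, chromosome 5, 91139599 to 91148432, plus strand), had the widest range. It stood at 6.05, 180, 1.66 and 8.28 CPM in WT 1 to WT 4 and at 20.5, 89.8, 39.9, 37.5 and 6.16 CPM in KO 1 to KO 5. WT 2 was 108 times WT 3, where Areg had only 10 counts, and KO 2 was 14.6 times KO 5. The other 3 WT libraries and KO 5 were below 10 CPM, and KO 1 to KO 4 lay between them and WT 2. WT averaged 48.9 ± 87.3 CPM (SD, n = 4) and KO 38.8 ± 31.6 CPM (SD, n = 5). The fitted log2 fold change was -0.33 ± 1.07 (SE; adjusted p = 0.953, edgeR), whereas the mean log2 CPM was 3.58 in WT and 4.83 in KO.

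Foxa1, the pioneer factor gene (ENSMUSG00000035451.7, chromosome 12, 57540628 to 57546916, minus strand), stood at 13.5, 134, 45.5 and 19.0 CPM in WT 1 to WT 4 and at 73.3, 49.0, 21.7, 26.9 and 22.1 CPM in KO 1 to KO 5. WT 2 was again highest and WT 1 lowest, a 9.96-fold range, and KO 1 and KO 2 followed WT 2. WT averaged 53.1 ± 56.0 CPM (SD, n = 4) and KO 38.6 ± 22.4 CPM (SD, n = 5), with a log2 fold change of -0.47 ± 0.61 (SE; adjusted p = 0.861, edgeR).

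The prolactin receptor gene Prlr (ENSMUSG00000005268.20, chromosome 15, 10177238 to 10349180, plus strand) stood at 377, 684, 321 and 168 CPM in WT 1 to WT 4 and at 580, 599, 467, 223 and 232 CPM in KO 1 to KO 5. The 3 highest libraries were WT 2, KO 2 and KO 1, as for Pgr and Esr1. WT averaged 387 ± 217 CPM (SD, n = 4) and KO 420 ± 183 CPM (SD, n = 5), with a log2 fold change of 0.12 ± 0.41 (SE; adjusted p = 0.956, edgeR). Of its 15339 exon bases, 203 are shared with the gene model Gm21973 on the same strand.

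Stat5a (ENSMUSG00000004043.14, chromosome 11, 100859351 to 100885169, plus strand) and Stat5b (ENSMUSG00000020919.11, chromosome 11, 100780731 to 100850724, minus strand) encode the paired transcription factors downstream of the prolactin receptor and lie head to head, 8626 bases apart. Stat5a stood at 98.8, 405, 115 and 162 CPM in WT 1 to WT 4 and at 136, 233, 94.1, 155 and 116 CPM in KO 1 to KO 5. Stat5b stood at 99.5, 194, 120 and 162 CPM in WT 1 to WT 4 and at 138, 176, 113, 155 and 114 CPM in KO 1 to KO 5. Both were highest in WT 2 and then KO 2, but Stat5a spanned 4.30-fold over the 9 libraries and Stat5b 1.94-fold. Neither passed the adjusted test between genotypes, with log2 fold changes of -0.41 ± 0.40 for Stat5a (SE; adjusted p = 0.808, edgeR) and -0.05 ± 0.21 for Stat5b (SE; adjusted p = 0.967, edgeR).

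Per exon length, Stat5a stood below Stat5b in 7 libraries, at a ratio of 0.647 to 0.789. Before division by length, the CPM of the paralogs were close in most of these libraries, such as 98.8 and 99.5 in WT 1. KO 3 was the widest apart, at 94.1 and 113 CPM. The lengths merge all annotated exons, 7133 bases for Stat5a and 5539 for Stat5b, and need not be those of the expressed transcripts. A ratio below 1 therefore rests largely on these lengths. The ratio was 1.62 in WT 2 and 1.03 in KO 2, the libraries where Pgr and Areg were also highest. The paralogs share sequence, and counting leaves out reads that match both equally well, which makes the ratio uncertain to that extent. Stat5a also shares 72 exon bases with Stat3 on the opposite strand.

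Gata3, the zinc-finger regulator of luminal differentiation (ENSMUSG00000015619.10, chromosome 2, 9857078 to 9890034, minus strand), was high in every library. It stood at 279, 496, 304 and 446 CPM in WT 1 to WT 4 and at 366, 493, 258, 361 and 293 CPM in KO 1 to KO 5, a 1.92-fold range. WT 2 and KO 2 were nearly equal at the top, and KO 3 was lowest. The log2 fold change was -0.11 ± 0.22 (SE; adjusted p = 0.923, edgeR). Gata3 shares 155 of its 3978 exon bases with the antisense gene Gm13256 and 77 with 9230102O04Rik on the same strand, and whether counting used strand was not given in the sources used here.

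Elf5, the ETS factor of alveolar luminal cells (ENSMUSG00000027186.15, chromosome 2, 103411688 to 103450989, plus strand), stood at 356, 292, 289 and 451 CPM in WT 1 to WT 4 and at 280, 270, 266, 298 and 259 CPM in KO 1 to KO 5. WT 4 and WT 1 were the highest libraries, and WT 2 and WT 3 lay among the KO libraries. WT averaged 347 ± 75.8 CPM (SD, n = 4) and KO 274 ± 15.2 CPM (SD, n = 5), with a log2 fold change of -0.34 ± 0.15 (SE; edgeR unadjusted p = 0.0403, adjusted p = 0.616). WT 4 and WT 1 also held the highest summed level of 8 milk protein genes, 12223 and 16994 CPM. WT 2 and WT 3 held 3377 and 5245 CPM and the KO libraries 2454 to 8029 CPM. Without WT 4 and WT 1 the log2 fold change of Elf5 was -0.09 ± 0.13 (SE; edgeR unadjusted p = 0.516). The part of the milk protein difference in the Elf5 result was not tested.

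Kit, the receptor tyrosine kinase of luminal progenitors (ENSMUSG00000005672.12, chromosome 5, 75574916 to 75656722, plus strand), had the most counts of the members, 41781 over the 9 libraries. It stood at 1432, 661, 786 and 842 CPM in WT 1 to WT 4 and at 814, 944, 785, 721 and 901 CPM in KO 1 to KO 5. WT 1 was highest and WT 2 lowest, the reverse of Esr1 and Foxa1, whose lowest library was WT 1. The log2 fold change was -0.16 ± 0.21 (SE; adjusted p = 0.863, edgeR). Kit also marks mast cells. Of 8 mast cell markers, Cpa3, Mcpt4, Tpsab1, Ms4a2 and Fcer1a had no count in any library, and the summed level of all 8 was 0.166 to 0.627 CPM in WT and 0.328 to 2.91 CPM in KO. Innate lymphoid cells can carry KIT too, and the summed level of 9 T cell and innate lymphoid markers was 83.4 to 94.0 CPM in WT and 74.7 to 89.6 CPM in KO, most of it Rora, which had a mean of 71.2 CPM in WT and 68.3 CPM in KO.

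**Figure D3:**
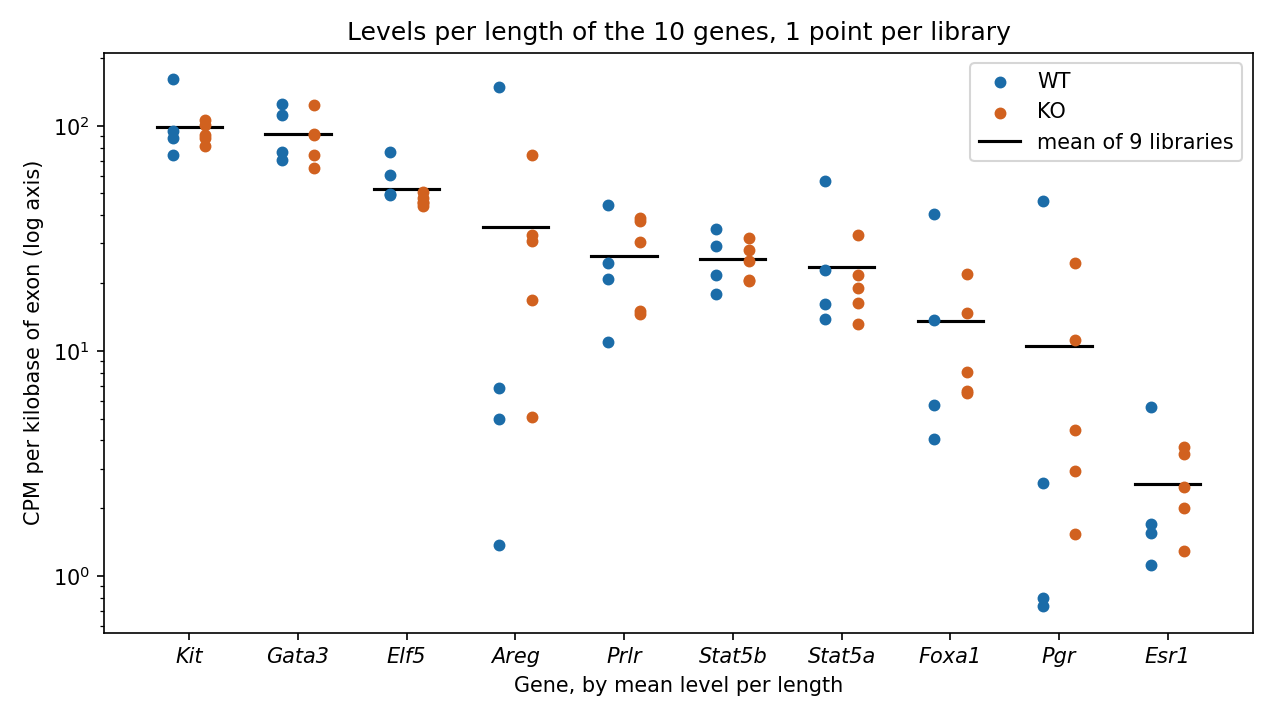
CPM per kilobase of exon for each gene in every library, on a log axis, with genes ordered by their mean over the 9 libraries (line). Kit and Gata3 lie at the top, Esr1 at the bottom, and Areg covers the widest range.

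Compared per kilobase of exon, the order of the mean levels was Kit (98.3 ± 25.3 CPM per kb, SD, n = 9), Gata3 (92.1 ± 23.1), Elf5 (52.2 ± 10.4), Areg (35.6 ± 47.9), Prlr (26.4 ± 12.1), Stat5b (25.5 ± 5.81), Stat5a (23.6 ± 13.8), Foxa1 (13.5 ± 11.6), Pgr (10.6 ± 15.4) and Esr1 (2.56 ± 1.48). Some neighbours were not separated library by library. Kit was above Gata3 in 4 of 9 libraries, Areg above Prlr in 4, Prlr above Stat5b in 5 and Pgr above Esr1 in 6. Gata3 was above Elf5 in all 9. Esr1 was thus the lowest receptor per length while its target Pgr ranged from 0.733 to 46.3 CPM per kb, and the alveolar regulator Elf5 stayed between 44.0 and 76.7 CPM per kb. The lengths merge all exons annotated for a gene, and the annotation used for counting was not given. The order between genes therefore depends in part on the lengths chosen.

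Without WT 2, the direction of 6 members reversed to higher in KO, and Esr1 and Prlr, already above 0, moved further up. WT 2 had been singled out for its high Esr1, Pgr and Areg. A rise in their fold changes without it was therefore fixed by that choice, and the values below are a description. The other 3 WT libraries had a mean of 5.33 ± 3.37 CPM for Areg (SD, n = 3), 11.7 ± 8.98 CPM for Pgr and 20.0 ± 4.12 CPM for Esr1. For each of Areg, Pgr and Esr1, 4 of the 5 KO libraries were above the highest of those 3 WT libraries, and for Prlr 3 of the 5 were. Leaving out the highest WT library favours such counts. Their share over all genes was not computed, so they do not measure a separation of the genotypes. The log2 fold change became 2.91 ± 0.80 for Areg (SE; edgeR unadjusted p = 0.00415, adjusted p = 0.418), 2.72 ± 0.90 for Pgr (SE; unadjusted p = 0.0121, adjusted p = 0.565) and 0.82 ± 0.32 for Esr1 (SE; unadjusted p = 0.0278, adjusted p = 0.595).

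Prlr (0.54 ± 0.38), Foxa1 (0.55 ± 0.49) and Stat5a (0.23 ± 0.28) were also above 0 without WT 2, with unadjusted p-values of 0.188, 0.285 and 0.436 in edgeR. Gata3 (0.05 ± 0.23) and Stat5b (0.13 ± 0.20) were near 0. Elf5 (-0.41 ± 0.15) and Kit (-0.29 ± 0.21) stayed below 0, with unadjusted p-values of 0.0219 and 0.186 in edgeR. An unadjusted p under 0.05 in edgeR was thus reached by 4 members, Areg, Pgr and Esr1 higher and Elf5 lower in KO. The share over all genes in that fit was 7.9%. The 2 are not alike, because the library left out was chosen for its high Areg, Pgr and Esr1. No member passed its adjusted test, which called 7 of 14905 genes (0.047%). The median log2 fold change over the members was 0.38 without WT 2, beside 0.01 over all genes. WT 2 is also the library of the oldest animal, so its age and any other property of that tumor cannot be told apart.

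**Figure D4:**
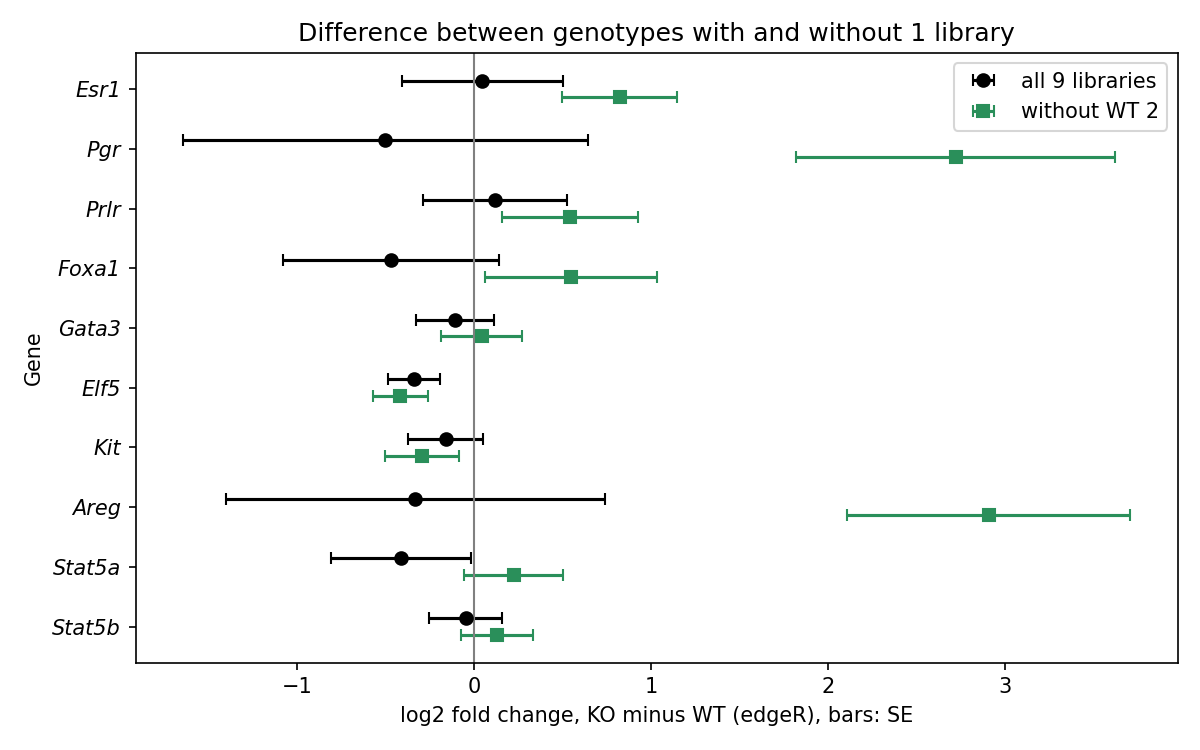
Log2 fold change of KO over WT (edgeR estimate ± SE) for each gene with all 9 libraries and without WT 2. Pgr and Areg move from below 0 to 2.72 and 2.91, Elf5 and Kit stay below 0, and none passes the adjusted test in either fit.

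WT 2 carried the highest level of 12.6% of all genes tested and of 8 of the 10 members. It was also the highest library for 4 of the 8 luminal epithelial markers, the keratin genes Krt8, Krt18, Krt19 and Krt7, while Epcam, Cdh1 and Cldn7 were highest in WT 1 and Cldn4 in WT 3. Of the 10 luminal progenitor and mature luminal markers it was highest for 2, Ly6a and Ly6d. The following genes were chosen after their values were seen, for being high there. Krt19, a luminal keratin gene, stood at 1651 CPM in WT 2, against 197 to 380 CPM in the other WT libraries and 233 to 601 CPM in KO. Ly6a, which encodes the surface antigen SCA1 found on hormone-sensing luminal cells, stood at 329 CPM in WT 2, against 14.3 to 58.7 CPM in the other WT libraries and 21.8 to 78.9 CPM in KO. Myb, a transcription factor gene, stood at 139 CPM in WT 2 and at most 46.7 CPM elsewhere. The summed basal and myoepithelial markers ran from 149 to 259 CPM in WT, again highest in WT 2, and from 134 to 214 CPM in KO.

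The pattern over libraries was compared between members by the root mean square difference of their centred log2 CPM over the 9 libraries, as a description. Among the 45 pairs of members, Gata3 and Stat5b were the most alike, at 0.101, followed by Elf5 and Kit at 0.327 and Gata3 and Stat5a at 0.357. Esr1 was nearest to Stat5a (0.478), Prlr (0.501) and Foxa1 (0.517). Pgr and Elf5, and Kit and Areg, were the least alike, both at 2.09. Libraries are shared by all these values, and small differences come easily to genes that vary little.

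Among 12421 protein-coding genes tested at a mean log2 CPM of at least 1, the nearest to Pgr over the 9 libraries were Gm16485 (0.55), Cyp3a57 (0.573) and Rasgrf1 (0.74), where Pgr itself had an SD of 2.08. Rasgrf1, a Ras exchange factor gene, stood at 11.6, 167, 16.9 and 5.60 CPM in WT 1 to WT 4 and at 93.4, 274, 38.7, 15.7 and 25.1 CPM in KO 1 to KO 5. Like Pgr it was high in WT 2, KO 2 and KO 1, although its highest library was KO 2. The nearest to Foxa1 (SD 1.05) were Proc (0.34), Fam25c (0.363) and Syt8 (0.366). The nearest to Areg (SD 2.07) were Defb1 (1.18), Arg2 (1.22) and Rbm20 (1.23), so no gene followed Areg as closely as others followed Pgr or Foxa1.

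Around the members, 81 further genes in 6 lists were examined, of which 75 were tested and none passed the adjusted edgeR test. An unadjusted p under 0.05 was reached by 6 of the 75 (8%), close to the 7.95% of all genes tested. All 6 were lower in KO, where 4.59% of all genes reached it, and 49 of the 75 had a fold change below 0. WT 2 was the highest library for 19 of the 75, against 8 of the 10 members.

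Of the estrogen and progesterone response genes, 7 of 12 were tested, with 6 below 0 and a median log2 fold change of -0.53, which was -0.07 without WT 2. Igfbp4, an IGF-binding protein gene, stood at 62.8, 20.3, 25.3 and 26.2 CPM in WT 1 to WT 4 and 11.2 to 21.4 CPM in KO, with a log2 fold change of -1.18 ± 0.32 (SE; edgeR unadjusted p = 0.00376, adjusted p = 0.489). Ctsd, the cathepsin D gene, had a log2 fold change of -0.53 ± 0.22 (SE; edgeR unadjusted p = 0.0330, adjusted p = 0.616). The ERα cofactor and target Greb1, chosen after its values were seen, was high in WT 2 (32.4 CPM) and KO 2 (28.5 CPM) and at most 6.31 CPM elsewhere. Tnfsf11, the progesterone-induced gene of the cytokine RANKL, also chosen after its values were seen, was too low to be tested and was found mainly in KO 3 (9.19 CPM) and KO 4 (7.76 CPM), which were not the libraries with the most Pgr. Fibroblast markers, whose cells also express Igfbp4, had a summed level of 531 to 737 CPM in WT and 191 to 411 CPM in KO, and their part in the result was not tested.

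The other hormone receptors and receptor coregulators were balanced, with 8 of 15 above 0 and a median of 0.01 (0.09 without WT 2). The smallest p-values belonged to Pgrmc1, a membrane-associated progesterone-binding protein gene (-0.46 ± 0.22, SE; edgeR unadjusted p = 0.0599), and Ncor1, a nuclear receptor corepressor gene (0.20 ± 0.11, SE; edgeR unadjusted p = 0.112). The JAK-STAT genes around STAT5 were balanced too, with 7 of 14 above 0 and a median of -0.02 (0.10 without WT 2). Socs2 and Socs3, feedback inhibitors induced by cytokine signaling, had log2 fold changes of -0.34 ± 0.18 and -0.25 ± 0.19 (SE; edgeR unadjusted p = 0.0941 and 0.211).

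Of the other luminal transcription factor genes, 12 of 18 were below 0, with a median of -0.12 (-0.04 without WT 2). Klf5, a Krüppel-like factor gene, had a log2 fold change of -0.29 ± 0.12 (SE; edgeR unadjusted p = 0.0389, adjusted p = 0.616), and Elf3, an epithelial ETS factor gene, -0.38 ± 0.20 (SE; edgeR unadjusted p = 0.0848). Of the KIT and AREG partners, 10 of 11 tested were below 0, with a median of -0.08 (-0.19 without WT 2). Btc, an EGF-family ligand gene, had a log2 fold change of -0.42 ± 0.20 (SE; edgeR unadjusted p = 0.0560) and Kitl, the KIT ligand gene, -0.43 ± 0.22 (SE; edgeR unadjusted p = 0.0773). WT 2 was the highest library for none of the 11, in contrast to Areg.

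The luminal progenitor and mature luminal markers had the lowest median of the 6 lists, -0.61, with 7 of 10 below 0, and without WT 2 the median was -0.24. Some markers of other kinds stood wholly on the same side. These were all 7 tested milk protein genes (median -3.32), all 7 tested fibroblast markers (-0.89), all 7 endothelial (-0.82), all 8 macrophage (-0.62) and all 5 erythroid markers (-0.73). Others were mixed, with 4 of 9 basal and myoepithelial markers (median -0.17), 1 of 3 tested adipocyte markers (-0.05) and 1 of 4 tested T cell and innate lymphoid markers (-0.11) above 0. The part of these cell types in the lists was not tested. Cd14, a luminal progenitor marker, stood at 240, 124, 127 and 160 CPM in WT 1 to WT 4 and 62.2 to 107 CPM in KO, so that every KO library was below every WT library. Its log2 fold change was -0.89 ± 0.22 (SE; edgeR unadjusted p = 0.00163, adjusted p = 0.381), and DESeq2 gave -0.90 ± 0.24 with an adjusted p of 0.0460. Cd14 is also a macrophage gene, and the summed macrophage markers were 359 to 577 CPM in WT and 157 to 561 CPM in KO, whose part was not tested. Aldh1a3, the aldehyde dehydrogenase gene of luminal progenitors, had a log2 fold change of -0.52 ± 0.18 (SE; edgeR unadjusted p = 0.0173, adjusted p = 0.616). The progenitor marker Kit itself, on the same scale, was at -0.16 ± 0.21.

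**Figure D5:**
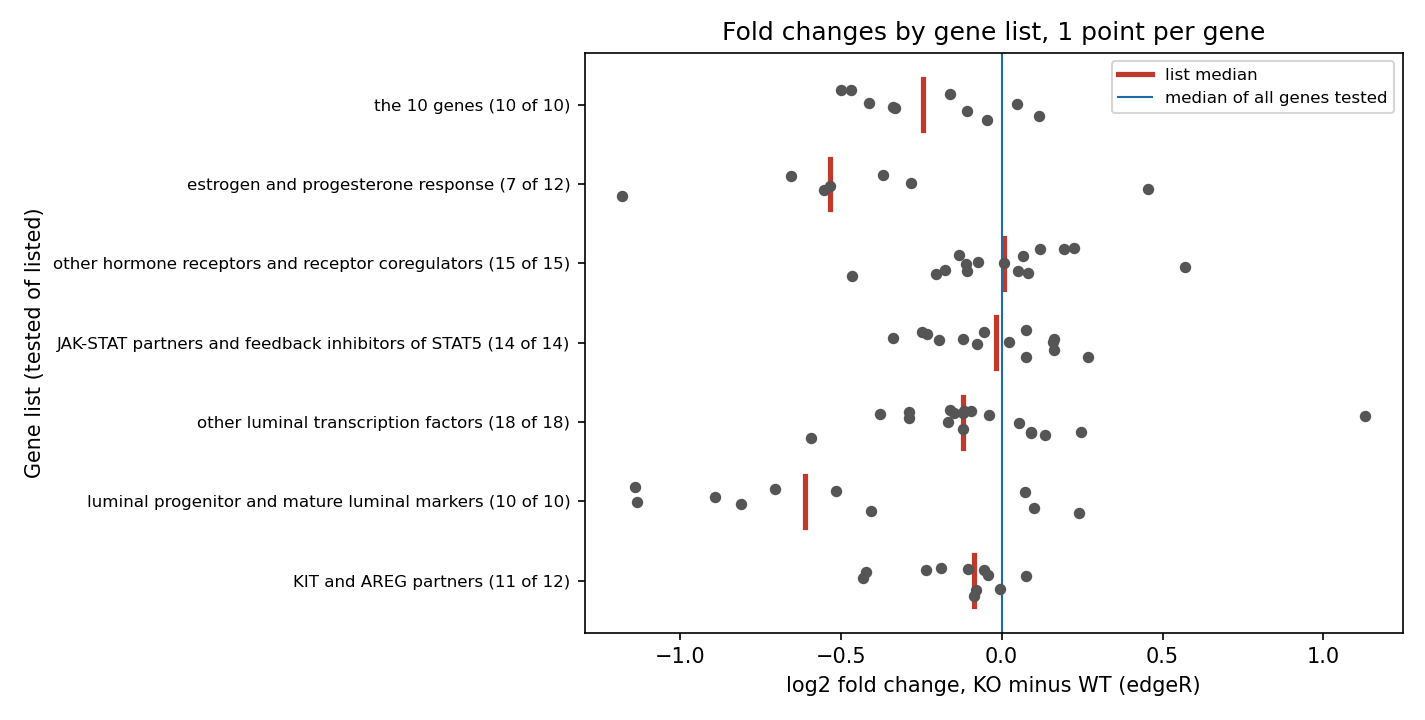
Log2 fold change of KO over WT for each tested gene of the members and the 6 lists (points), with the median of each list (bar). The medians run from -0.61 for the luminal progenitor and mature luminal markers to 0.01 for the other hormone receptors and coregulators, and the members' median is -0.24.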

How the data were processed

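The authors deposited unnormalized counts per gene and library for 4 WT and 5 KO tumors. The submitters' processing notes name STAR 2.5.4a, Trimmomatic 0.36, FastQC 0.11.5 and the build GRCm38. Neither the annotation nor the strand setting was given in the sources used here. Entries naming no gene were left out of library sizes. Of a library's fragments, 11.0% to 27.1% were unmapped, 5.50% to 9.53% mapped to several places, 34.0% to 50.4% lay in no feature and 0.971% to 1.23% were ambiguous. Of 55401 mouse identifiers, 55141 matched a symbol in the GRCm38 annotation.

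KO was tested against WT over all genes with edgeR 4.0.16 in R 4.3.3 (quasi-likelihood, TMM factors, filterByExpr, genotype as the only term, two-sided, Benjamini-Hochberg adjusted p under 0.05). DESeq2 1.42.0, limma 3.58.1 (voom with sample weights), other scalings, filters, age, the library number and left-out libraries were alternatives. Log2 CPM used a prior count of 2. The test was checked on simulated data. No pair of replicate libraries held identical values.

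The members and the gene lists were chosen with earlier results of these data known. Genes named are the members, the 2 genes per list whose unadjusted p was smallest, and the 3 protein-coding genes nearest in pattern to each of the 3 most variable members. Others are said to be chosen after their values were seen.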

Additional observations from a re-analysis of the deposited data

Results flagged for a closer look

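In each group of 4 or 5 libraries, the gap between the highest or lowest library and its nearest neighbour was taken in CPM. It was divided by the group's range and compared with Dixon's 95% critical value. Chance gives about 1 in 20 groups where values are normally distributed, which was not checked for CPM. Groups of different genes also share the same libraries, so they are not independent. A library stood apart in 3 of 20 groups of the members, each time WT 2, in 2 of 24 groups of the list genes named and in 6 of 18 groups of the genes nearest in pattern, which were chosen for resembling members. Esr1 stood at 77.1 CPM in WT 2 with 23.3 CPM next (ratio 0.872), Pgr at 396 CPM with 22.1 CPM next (0.959), and Areg at 180 CPM with 8.28 CPM next (0.963). The ratios depend on the scale and were not taken on log2 CPM. There, WT 2, the next and the lowest WT library stood at 6.28, 4.56 and 3.97 for Esr1. They stood at 8.63, 4.49 and 2.73 for Pgr and at 7.49, 3.11 and 1.02 for Areg.

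Among the genes nearest to Pgr and Areg, WT 2 stood apart for Gm16485 (78.4 CPM with 7.68 CPM next, 0.912), Cyp3a57 (37.6 with 3.72, 0.912), Rasgrf1 (167 with 16.9, 0.93), Defb1 (10.2 with 0.930, 0.929), Arg2 (28.8 with 5.15, 0.979) and Rbm20 (38.2 with 4.88, 0.91). In WT 1, Igfbp4 stood apart at 62.8 CPM with 26.2 CPM next (0.861), and Pgrmc1 at 154 CPM with 83.4 CPM next (0.833).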

How the results depend on the processing

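The count of members passing the adjusted test was 0 under all 20 alternatives. Of these, 1 keeps the main fit and only raises the threshold on the adjusted p to 0.10. Its fold changes and unadjusted p-values are therefore those of the main fit. Over all genes the count of 13 became 68 with DESeq2, 29 with no count filter and 6 with a mean count of at least 50, and ran from 6 to 13 with single libraries left out. DESeq2 called 1 list gene, Cd14. The members below 0 numbered 8, and became 5 with limma-voom, 5 with the replicate block, 2 with age as a covariate and 2 to 10 with single libraries left out (2 without WT 2). The cause was not tested, and age rests largely on WT 2.

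Log2 fold changes reversed as follows. Limma-voom gave 1.54 for Pgr, 1.72 for Areg and 0.039 for Kit. Age gave 2.88 for Pgr, 3.22 for Areg, 0.92 for Foxa1, 0.18 for Gata3, 0.46 for Stat5a and 0.28 for Stat5b. Library totals alone gave 0.018 for Stat5b. Leaving out WT 1 and WT 4 gave -0.46 for Esr1, -0.26 for Prlr and 0.20 for Kit. With single libraries left out, the range was -0.19 to 0.82 for Esr1, -1.34 to 2.72 for Pgr, -0.14 to 0.54 for Prlr, -0.83 to 0.55 for Foxa1, -0.25 to 0.045 for Gata3, -0.29 to 0.13 for Kit, -0.91 to 2.91 for Areg, -0.64 to 0.23 for Stat5a and -0.19 to 0.13 for Stat5b. Elf5 kept its sign in all 20, at -0.41 to -0.19 with single libraries left out, and had an unadjusted p under 0.05 in 9 of them. The 9 include the repeat of the main fit at a threshold of 0.10. Areg, Pgr and Esr1 each had an unadjusted p under 0.05 in 2, without WT 2 and with age, both times higher in KO. Foxa1 had it in 1, without WT 1 and WT 4, lower in KO. The Elf5 fold change came nearest to 0 without WT 1 and WT 4, at -0.09 ± 0.13 (SE; edgeR unadjusted p = 0.516).

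The replicate block called 10 genes and reversed Pgr (0.96), Areg (1.55) and Stat5b (0.044). Deviations of same-numbered libraries correlated at -0.0239, 0.383, 0.111 and 0.377, and WT 2, WT 3 and WT 4 correlated best with their own number while WT 1 correlated best with KO 3. Not every pair was above 0.1, so the numbers were not taken as pairs. Depth limits Areg most, at 10 counts in WT 3.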
